A study of Homo sapiens with 16 samples.

Results

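RNA sequencing compared 2 kinds of epithelial HMLER cells that the study calls plastic, meaning able to pass into a mesenchymal state. sgKMT2D-Epi cells came from the C1 cells and carried a CRISPR guide against KMT2D (genotype label KMT2D-KO), and C2-Epi cells were unedited (genotype label wild type). The comparison took the 2 libraries of each group, 4 of the 16 libraries of the study, chosen by their sample titles. Of 60448 genes counted per library, 18285 passed the filter on low counts and were tested. HMLER is an established line of human mammary epithelial cells that was immortalized and transformed with introduced genes, among them TERT and an oncogenic HRAS, and every group carries them. All cells were grown in the same medium with insulin, EGF and hydrocortisone. Beside them stand 4 other groups of 2 libraries: sgKMT2D-Mes (KMT2D-KO, mesenchymal, from C1), C2-Mes (unedited, mesenchymal), sgControl (C1 with a control guide, epithelial) and C1 itself (unedited, a stable epithelial state). C1 cells with a guide against EED, epithelial (sgEED-Epi) and mesenchymal (sgEED-Mes), also entered the fit. Their levels are given beside a few genes. Whether paired libraries come from separate cultures is not in the labels, so the p-values here speak for the spread among libraries and no further. They also do not say whether C1 and C2 are clones. The KMT2D guide and descent from C1 came together in sgKMT2D-Epi, and this comparison alone does not separate them. Levels in sgControl and C1, which share the descent and have no KMT2D guide, are therefore given beside several genes.

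Epithelial cells hold together through cadherin junctions and desmosomes and rest on a basement membrane. In the epithelial to mesenchymal transition (EMT), repressors such as ZEB1, ZEB2, SNAI2 and TWIST1 silence epithelial genes while intermediate filament, collagen and proteoglycan genes come on. Cells can stop in between, and such hybrid or plastic states have been linked to invasion and to regrowth of tumours. KMT2D is a histone H3 lysine methyltransferase of the COMPASS family that marks enhancers, and EZH2 and EED belong to the opposing Polycomb repressive complex.

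Total counts were 28058943 and 24046480 in sgKMT2D-Epi and 25130084 and 23978627 in C2-Epi. Replicates correlated across genes with r = 0.994 in sgKMT2D-Epi and 0.993 in C2-Epi. Mitochondrial transcripts made up 10.2% and 9.41% of counts in sgKMT2D-Epi and 7.93% and 8.08% in C2-Epi. KMT2D transcripts (GRCh38 chromosome 12, 49018975 to 49059774) stood at 124 and 127 CPM in sgKMT2D-Epi, against 116 and 115 CPM in C2-Epi (log2 0.12, 95% interval -0.25 to 0.50, adjusted p = 0.64). Edited genes often keep their transcript, so this level does not check the edit. The epithelial label held in both groups. The 5 epithelial markers CDH1, EPCAM, GRHL2, ESRP1 and DSP were all present and summed to 1570 and 1472 CPM (TMM-scaled CPM, which sets each count against its library total) in sgKMT2D-Epi, against 1737 and 1809 CPM in C2-Epi. DSP made up most of each sum. The sum alone does not mark the state, since it was 911 and 1092 CPM in sgEED-Mes. EPCAM averaged 0.855 CPM in sgKMT2D-Mes, 0.813 CPM in C2-Mes and 0.952 CPM in sgEED-Mes. The 7 luminal markers summed to 529 and 567 CPM in sgKMT2D-Epi and 694 and 644 CPM in C2-Epi. KRT8 and KRT18 made up most of each sum, while KRT19 stayed under 0.1 CPM in all 4 libraries and ELF5 at 0. Endothelial markers summed to 1.70 and 1.75 CPM in sgKMT2D-Epi and 3.54 and 2.73 CPM in C2-Epi, and leukocyte markers to 0.355 and 0.159 CPM in sgKMT2D-Epi and 0.217 and 0.115 CPM in C2-Epi, with CD3E at 0.

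Of the 18285 genes, 2696 (14.7%) were higher and 3148 (17.2%) lower in sgKMT2D-Epi than in C2-Epi at a Benjamini-Hochberg adjusted p under 0.05 in edgeR's quasi-likelihood test, 32% in all. Among them 673 were at least 4-fold higher and 880 at least 4-fold lower. The test fitted all 16 libraries. With only the 4 compared libraries it called 4550 higher and 4674 lower. It called 1757 higher and 1948 lower without sgKMT2D-Epi replicate 1, 1708 higher without C2-Epi replicate 1 and 1614 higher without C2-Epi replicate 2. Without 1 library of the more variable C2-Mes group it called 3543 higher (replicate 1) or 3353 higher (replicate 2). Below, a value pair gives the 2 libraries of a group, ± gives the standard error of the log2 difference, and positive log2 values mean higher in sgKMT2D-Epi. For each of the 143 genes below that passed the test, both libraries of one group lay above both of the other, so the groups did not overlap. Most of these genes were named because they had passed, so this describes them and adds no support. The share among all genes tested is not given here. In bulk RNA, a lower level can come from fewer cells of a kind or from less RNA per cell, and these cannot be told apart.

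KRT14 and some other basal genes fell in sgKMT2D-Epi, while CDH1 and KRT5 did not pass the test. The basal marker COL17A1 was not lower, at 418 and 419 CPM in sgKMT2D-Epi, against 381.5 and 377 CPM in C2-Epi. CDH1, the gene of E-cadherin, stood at 224 and 216 CPM in sgKMT2D-Epi, against 211 and 221 CPM in C2-Epi (log2 0.03, 95% interval -0.46 to 0.51, adjusted p = 0.95). KRT5, the basal keratin partner of KRT14, stood at 3772 and 3679 CPM in sgKMT2D-Epi, against 3848 and 3812 CPM in C2-Epi (log2 -0.04, 95% interval -0.43 to 0.35, adjusted p = 0.9). KRT14, by contrast, fell to 55.8 and 51.8 CPM in sgKMT2D-Epi, against 1274 and 1235 CPM in C2-Epi (log2 -4.54 ± 0.23, adjusted p = 1.3e-08), with 2300 CPM in sgControl and 1868 CPM in C1. The lineage factor of basal epithelium TP63 (GRCh38 chromosome 3, 189631416 to 189897279) also fell, to 84.3 and 70.1 CPM in sgKMT2D-Epi, against 163 and 181 CPM in C2-Epi (log2 -1.16 ± 0.22, adjusted p = 0.0012), and lies in a stretch of chromosome 3 where neighbouring genes were lower too. FAT2, a protocadherin-type cell surface gene of basal keratinocytes, fell to 71.5 and 81.1 CPM in sgKMT2D-Epi, against 271 and 272 CPM in C2-Epi (log2 -1.83 ± 0.15, adjusted p = 8.6e-07). NGFR, the low-affinity nerve growth factor receptor of basal cells, fell to 0.496 and 0.598 CPM in sgKMT2D-Epi, against 7.04 and 5.92 CPM in C2-Epi (log2 -3.56 ± 0.28, adjusted p = 6e-07). KRT6B, a keratin of activated keratinocytes, rose to 7.66 and 7.69 CPM in sgKMT2D-Epi, against 1.81 and 2.42 CPM in C2-Epi (log2 1.86 ± 0.26, adjusted p = 0.00011), against the much higher means of 32.2 CPM in sgControl and 175 CPM in C1. Over the basal keratinocyte-type list, 8 of 27 measured members fell and 3 rose, with a median log2 difference of -0.17 beside 0.00 for all genes tested. The 8 became 5 without sgKMT2D-Epi replicate 1 or C2-Epi replicate 1. Outside shifted chromosome stretches 6 of 23 members of this list fell and 3 rose. Reads of KRT14 can be shared with near-identical keratin genes, and how such reads were counted is not given in the sources used here.

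Luminal genes went both ways, 4 of 19 higher and 4 lower (median 0.00). KRT7, a simple-epithelium keratin, rose to 1380 and 1429 CPM in sgKMT2D-Epi, against 462 and 416 CPM in C2-Epi (log2 1.68 ± 0.16, adjusted p = 4.2e-06). GATA3, the luminal lineage factor, rose to 11.4 and 10.9 CPM in sgKMT2D-Epi, against 1.7 and 0.999 CPM in C2-Epi (log2 3.04 ± 0.25, adjusted p = 8.6e-07). AGR2, an endoplasmic reticulum protein of secretory epithelia, rose to 131 and 136 CPM in sgKMT2D-Epi, against 21.7 and 22.1 CPM in C2-Epi (log2 2.61 ± 0.46, adjusted p = 0.00074). GATA3 averaged 11.7 CPM in sgControl and 12.9 CPM in C1, so sgKMT2D-Epi was near the C1-derived cells and C2-Epi below them. KRT8 stood at 251 and 273 CPM in sgKMT2D-Epi, against 279 and 256 CPM in C2-Epi (log2 -0.03, 95% interval -0.33 to 0.27, adjusted p = 0.91), and its groups overlapped. Its partner KRT18 fell to 266 and 283 CPM in sgKMT2D-Epi, against 413 and 386 CPM in C2-Epi (log2 -0.54 ± 0.15, adjusted p = 0.014), a call that did not hold without sgKMT2D-Epi replicate 1 (adjusted p = 0.1), sgKMT2D-Epi replicate 2 (0.053) or C2-Epi replicate 1 (0.09).

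Junction genes were called at about the rate of all genes, 4 of 28 higher and 4 lower (14.3% each), and those called did not move one way. Among them CLDN1, a tight junction claudin, rose to 353 and 316 CPM in sgKMT2D-Epi, against 31.7 and 35.3 CPM in C2-Epi (log2 3.32 ± 0.55, adjusted p = 0.00044). EVPL, envoplakin of the cornified envelope, rose to 18.6 and 23.1 CPM in sgKMT2D-Epi, against 9.5 and 8.34 CPM in C2-Epi (log2 1.22 ± 0.16, adjusted p = 6.8e-05). EVPL averaged 28.9 CPM in sgControl and 30.9 CPM in C1, above both compared groups. PPL, a cornified envelope and desmosome linker, fell to 17.3 and 20.04 CPM in sgKMT2D-Epi, against 98.6 and 94.9 CPM in C2-Epi (log2 -2.38 ± 0.25, adjusted p = 8e-06), and lies on the part of chromosome 16 that was lower as a whole. CGN, cingulin of tight junctions, fell to 9.21 and 8.8 CPM in sgKMT2D-Epi, against 17.6 and 16.9 CPM in C2-Epi (log2 -0.94 ± 0.24, adjusted p = 0.0089), with adjusted p of 0.056 without sgKMT2D-Epi replicate 1, 0.067 without its replicate 2 and 0.053 without C2-Epi replicate 1. EPCAM rose to 147 and 133 CPM in sgKMT2D-Epi, against 98.8 and 103 CPM in C2-Epi (log2 0.47 ± 0.16, adjusted p = 0.036), and the call ended when any 1 of the 4 libraries was left out (adjusted p between 0.076 and 0.21). The epithelial sodium channel subunit SCNN1A rose to 138 and 140.1 CPM in sgKMT2D-Epi, against 22.7 and 22.4 CPM in C2-Epi (log2 2.62 ± 0.14, adjusted p = 3.5e-08), with 155 CPM in sgControl and 165 CPM in C1.

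Epithelial regulators had 5 of 21 members lower (3 without sgKMT2D-Epi replicate 1) and 3 higher, and outside shifted chromosome stretches 4 of 16 were lower and 1 higher. RAB25, a small GTPase of apical recycling, fell to 5.64 and 6.81 CPM in sgKMT2D-Epi, against 27.4 and 25.3 CPM in C2-Epi (log2 -2.08 ± 0.20, adjusted p = 3.6e-06). PRSS8, the membrane serine protease prostasin, fell to 1.31 and 1.39 CPM in sgKMT2D-Epi, against 8.42 and 7 CPM in C2-Epi (log2 -2.51 ± 0.23, adjusted p = 2.3e-06), and lies on the lowered part of chromosome 16. Both had higher means in the C1 groups, with 66.8 CPM in sgControl and 53.8 CPM in C1 for RAB25. Grainyhead factors, which open epithelial enhancers, went apart. GRHL1, on the raised start of chromosome 2, rose to 5.25 and 5.02 CPM in sgKMT2D-Epi, against 1.19 and 1.31 CPM in C2-Epi (log2 2.04 ± 0.30, adjusted p = 0.00017), while GRHL3 fell to 3.51 and 4.46 CPM in sgKMT2D-Epi, against 10.2 and 9.07 CPM in C2-Epi (log2 -1.27 ± 0.33, adjusted p = 0.0086). The GRHL3 call ended without sgKMT2D-Epi replicate 1 (adjusted p = 0.089) or C2-Epi replicate 1 (0.052). GRHL2 stood at 42.4 and 43.6 CPM in sgKMT2D-Epi, against 50.9 and 51 CPM in C2-Epi (log2 -0.24, 95% interval -0.52 to 0.03, adjusted p = 0.16).

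Of the sort markers of breast epithelium, CD24 stood at 179 and 172 CPM in sgKMT2D-Epi, against 131 and 133 CPM in C2-Epi (log2 0.41, 95% interval 0.03 to 0.80, adjusted p = 0.095). CD44, the hyaluronan receptor, stood at 878 and 841 CPM in sgKMT2D-Epi, against 764 and 803 CPM in C2-Epi (log2 0.13, 95% interval -0.16 to 0.43, adjusted p = 0.5). The integrin gene ITGB4 stood at 505 and 569.6 CPM in sgKMT2D-Epi, against 722 and 687 CPM in C2-Epi (log2 -0.39, 95% interval -0.71 to -0.07, adjusted p = 0.063). ITGB1, a shared integrin subunit, fell to 793 and 707 CPM in sgKMT2D-Epi, against 1016 and 1119 CPM in C2-Epi (log2 -0.51 ± 0.17, adjusted p = 0.035), and the call ended when any 1 of the 4 libraries was left out (adjusted p between 0.075 and 0.2). THY1, a surface glycoprotein of mesenchymal and some basal cells, rose to 63.7 and 70.6 CPM in sgKMT2D-Epi, against 17.6 and 14 CPM in C2-Epi (log2 2.09 ± 0.34, adjusted p = 0.00037), and lies on the raised part of chromosome 11. THY1 averaged 104 CPM in sgControl and 122 CPM in C1, above both compared groups. PROCR, a receptor used to sort mammary progenitors, fell to 34.1 and 38.6 CPM in sgKMT2D-Epi, against 58.8 and 57.1 CPM in C2-Epi (log2 -0.67 ± 0.13, adjusted p = 0.0016). In the sort marker list as a whole 2 of 14 members were higher and 3 lower, and outside shifted stretches 1 of 11 was higher and 2 lower.

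**Figure D1:**
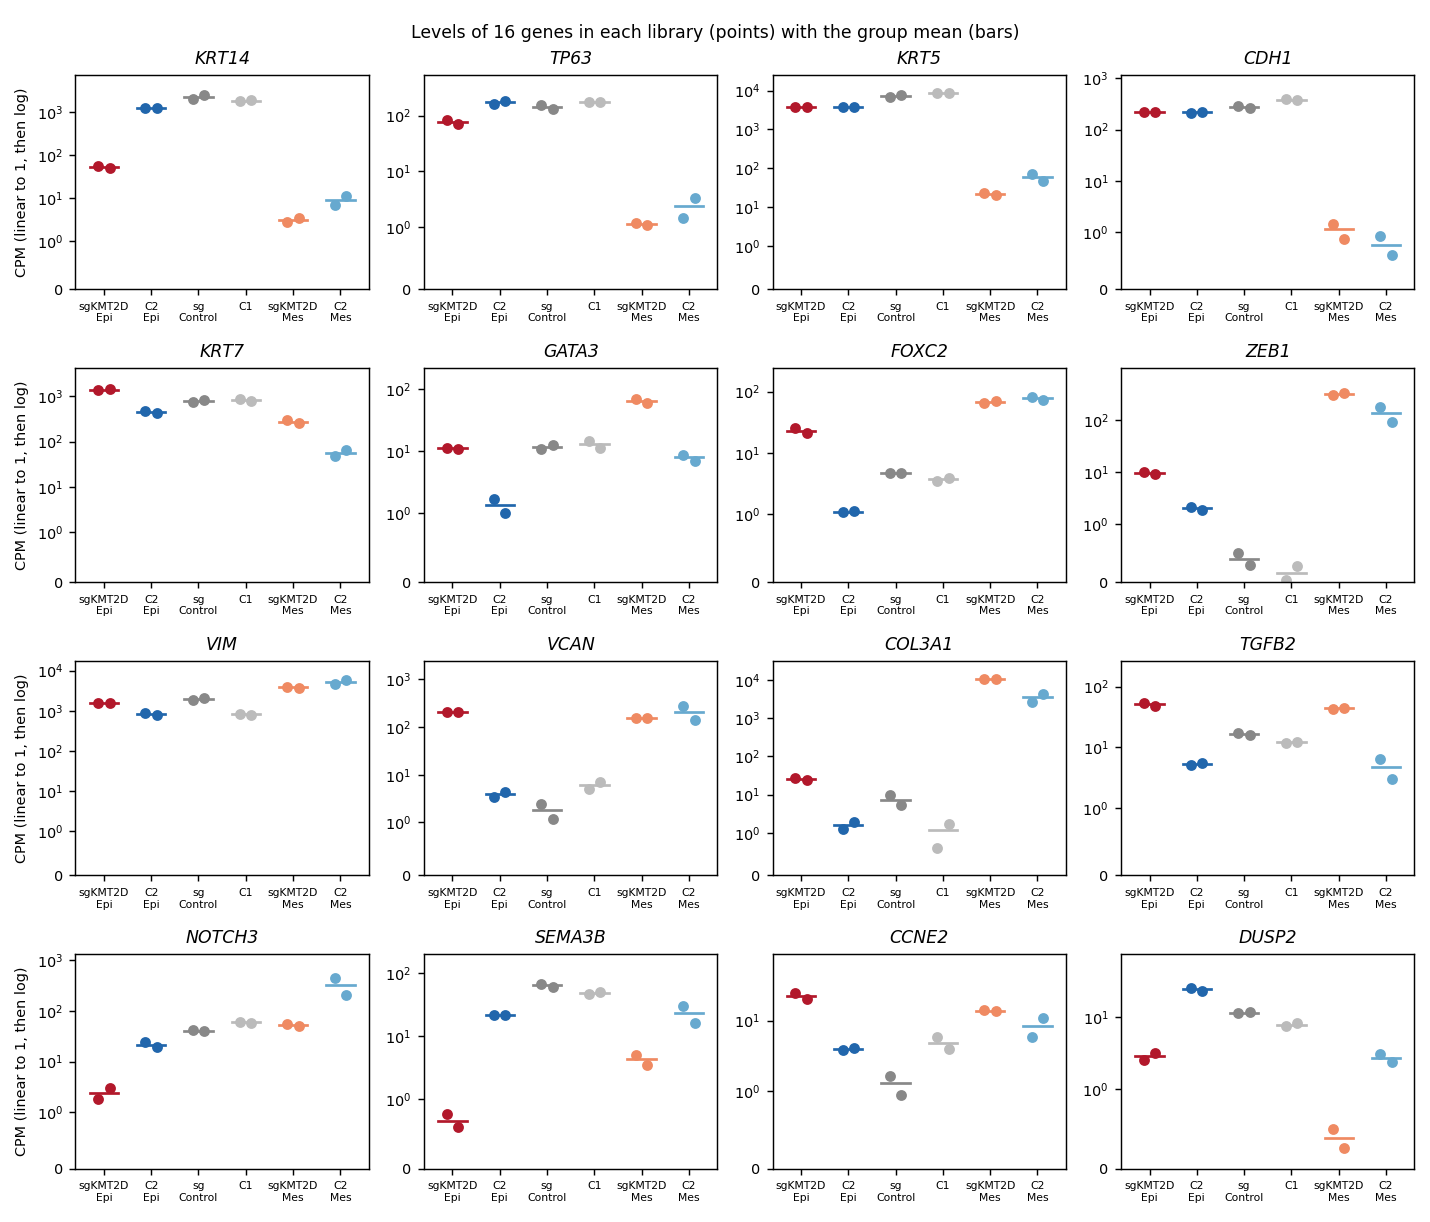
CPM of 16 genes (vertical axis, linear up to 1 and logarithmic above) in each library of 6 groups; points are libraries and bars group means, n = 2. KRT14 and TP63 are lower in sgKMT2D-Epi than in C2-Epi while KRT5 and CDH1 are near level, and FOXC2, ZEB1, VCAN and COL3A1 are higher.

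Several EMT transcription factors were higher in sgKMT2D-Epi, where CDH1 had not passed the test. Of 22 measured, 8 were higher (36.4%) and 4 lower (18.2%), with a median log2 difference of 0.29. FOXC2, a forkhead factor of mesenchymal cells, rose to 25.3 and 20.9 CPM in sgKMT2D-Epi, against 1.08 and 1.11 CPM in C2-Epi (log2 4.39 ± 0.22, adjusted p = 1.6e-08). ZEB1 (GRCh38 chromosome 10, 31318495 to 31529814) rose to 10.2 and 9.28 CPM in sgKMT2D-Epi, against 2.17 and 1.88 CPM in C2-Epi (log2 2.26 ± 0.54, adjusted p = 0.0056), with 0.402 CPM in sgControl and 0.164 CPM in C1, and its adjusted p was 0.051 without C2-Epi replicate 2. ZEB2 rose to 8.72 and 8.37 CPM in sgKMT2D-Epi, against 2.17 and 0.884 CPM in C2-Epi (log2 2.47 ± 0.37, adjusted p = 0.0002). TWIST1 rose to 10.8 and 8.09 CPM in sgKMT2D-Epi, against 2.56 and 3.27 CPM in C2-Epi (log2 1.70 ± 0.22, adjusted p = 6.8e-05). SNAI2, the repressor that is also active in normal basal cells, stood at 237 and 204 CPM in sgKMT2D-Epi, against 170.5 and 177 CPM in C2-Epi (log2 0.34, 95% interval -0.27 to 0.95, adjusted p = 0.4). For scale, sgKMT2D-Mes averaged 317 CPM of ZEB1 and 76.9 CPM of ZEB2, and sgEED-Epi 3.82 CPM of ZEB1 and 2.74 CPM of ZEB2.

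The wider mesenchymal list had 11 of 27 members higher (40.7%) and 7 lower (25.9%), 4 lower without sgKMT2D-Epi replicate 1. Outside shifted chromosome stretches 8 of 24 members were higher and 7 lower. PDPN, podoplanin, a mucin-type surface protein, stood at 41.7 and 36.5 CPM in sgKMT2D-Epi, against 0.0722 and 0.423 CPM in C2-Epi (log2 7.30 ± 0.37, adjusted p = 1.7e-08). It averaged 131 CPM in sgControl and 84.1 CPM in C1, so C2-Epi stood apart from the C1-derived epithelia. TAGLN, an actin-binding smooth muscle protein, rose to 14.8 and 15.4 CPM in sgKMT2D-Epi, against 1.19 and 0.769 CPM in C2-Epi (log2 3.93 ± 0.23, adjusted p = 5.7e-08), and lies on the raised part of chromosome 11. FAP, fibroblast activation protein, rose to 11.3 and 10.1 CPM in sgKMT2D-Epi, against 1.41 and 1.42 CPM in C2-Epi (log2 2.91 ± 0.36, adjusted p = 4.3e-05). VIM, the intermediate filament vimentin, was present in both and rose to 1540 and 1542 CPM in sgKMT2D-Epi, against 858 and 801 CPM in C2-Epi (log2 0.89 ± 0.14, adjusted p = 0.0003). LOXL1, which cross-links elastin, fell to 0.815 and 0.956 CPM in sgKMT2D-Epi, against 9.68 and 7.69 CPM in C2-Epi (log2 -3.29 ± 0.46, adjusted p = 0.00013). CDH2, which encodes N-cadherin, stood at 11.8 and 9.68 CPM in sgKMT2D-Epi, against 10.3 and 7.46 CPM in C2-Epi (log2 0.27, 95% interval -0.48 to 1.03, adjusted p = 0.6), and its groups overlapped.

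Matrix genes showed the same mixture, with 17 of 43 higher (39.5%) and 10 lower (23.3%, 6 of 43 members without either sgKMT2D-Epi library or without C2-Epi replicate 1). VCAN, the large proteoglycan versican, rose to 209.8 and 209 CPM in sgKMT2D-Epi, against 3.36 and 4.34 CPM in C2-Epi (log2 5.76 ± 0.48, adjusted p = 1.6e-06), against means of 1.84 CPM in sgControl and 5.98 CPM in C1. In sgEED-Epi it averaged 202.6 CPM, near sgKMT2D-Epi. COL3A1, a fibrillar collagen, rose to 27.8 and 24.4 CPM in sgKMT2D-Epi, against 1.3 and 1.88 CPM in C2-Epi (log2 4.04 ± 0.38, adjusted p = 4.4e-06). The small proteoglycan decorin, DCN, had 0 counts in both C2-Epi libraries and stood at 16.7 and 14.9 CPM in sgKMT2D-Epi, against 0 and 0 CPM in C2-Epi, at least 141-fold higher. POSTN, the matricellular protein periostin, had 2 counts in C2-Epi and stood at 25.4 and 21.9 CPM in sgKMT2D-Epi, against 0.0722 and 0 CPM in C2-Epi, with a ratio of the summed counts, scaled to library size, of 637 (95% counting interval 176 to 5269). NID2, a basement membrane nidogen, stood at 7.58 and 7.33 CPM in sgKMT2D-Epi, against 0.0722 and 0.0384 CPM in C2-Epi, with a ratio of the summed counts, scaled to library size, of 134 (95% counting interval 45.4 to 650.5).

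Not every collagen followed. COL1A1 fell to 17.8 and 20.3 CPM in sgKMT2D-Epi, against 74.2 and 59.8 CPM in C2-Epi (log2 -1.82 ± 0.53, adjusted p = 0.019), and the call ended without either sgKMT2D-Epi library or C2-Epi replicate 1 (adjusted p between 0.08 and 0.11). FN1, fibronectin, rose to 21340 and 20810 CPM in sgKMT2D-Epi, against 12350 and 12520 CPM in C2-Epi (log2 0.76 ± 0.12, adjusted p = 0.00027). The protease inhibitor SERPINE2 rose to 531 and 524 CPM in sgKMT2D-Epi, against 183 and 177 CPM in C2-Epi (log2 1.55 ± 0.15, adjusted p = 3.7e-06). Fibroblast markers went both ways. PDGFRA, DCN, LUM, COL1A1 and COL3A1 summed to 63.7 and 60.5 CPM in sgKMT2D-Epi and 75.7 and 61.95 CPM in C2-Epi, where COL1A1 made up most of the sum. In the fibroblast and adipocyte list 4 of 10 members were higher and 1 lower, with a median of 0.91. The 6 mesenchymal markers, of which VIM makes up most, summed to 1572 and 1569 CPM in sgKMT2D-Epi and 880 and 817 CPM in C2-Epi. Among them PDGFRB went the other way, at 0.815 and 1.035 CPM in sgKMT2D-Epi, against 6.4 and 5.8 CPM in C2-Epi. PRRX1, a factor that averaged 55.2 CPM in sgKMT2D-Mes, stood at 0.177 and 0.0797 CPM in sgKMT2D-Epi, against 0.0361 and 0.0384 CPM in C2-Epi. COL3A1 averaged 10420 CPM in sgKMT2D-Mes. Whether a small share of mesenchymal cells adds to the levels in sgKMT2D-Epi was not tested.

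Proteases that act on the matrix had 9 of 27 members higher and 11 lower (7 without sgKMT2D-Epi replicate 1). Outside shifted chromosome stretches 5 of 20 were higher and 10 lower. PRSS23, a secreted serine protease, rose to 451 and 463 CPM in sgKMT2D-Epi, against 74.9 and 77.1 CPM in C2-Epi (log2 2.59 ± 0.17, adjusted p = 1.7e-07), and lies on the raised part of chromosome 11. ADAM12, a metalloprotease of mesenchymal cells, rose to 5 and 5.9 CPM in sgKMT2D-Epi, against 2.46 and 2.46 CPM in C2-Epi (log2 1.15 ± 0.22, adjusted p = 0.0012), and lies on the raised end of chromosome 10. ADAM12 averaged 8.28 CPM in sgControl and 5.58 CPM in C1. MMP28, a metalloprotease of keratinocytes, fell to 2.52 and 2.67 CPM in sgKMT2D-Epi, against 9.68 and 11 CPM in C2-Epi (log2 -1.99 ± 0.31, adjusted p = 0.00026). PLAT, tissue plasminogen activator, fell to 7.44 and 6.65 CPM in sgKMT2D-Epi, against 18.7 and 16.8 CPM in C2-Epi (log2 -1.33 ± 0.31, adjusted p = 0.0045). TGM2, a transglutaminase that cross-links matrix proteins, rose to 202 and 219 CPM in sgKMT2D-Epi, against 39.9 and 32.2 CPM in C2-Epi (log2 2.55 ± 0.17, adjusted p = 1.3e-07), with 219.9 CPM in sgControl and 288 CPM in C1, and lies on chromosome 20, which was higher as a whole.

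Genes of TGF-beta and BMP signalling, a main inducer of EMT, had 9 of 44 members higher and 5 lower (3 without sgKMT2D-Epi replicate 1), with a median of 0.21, or 0.12 with the member at 0 in a group set to its bound. Outside shifted chromosome stretches 6 of 36 members were higher and 5 lower. The ligand gene TGFB2 (GRCh38 chromosome 1, 218346235 to 218444619) rose to 53.9 and 48.2 CPM in sgKMT2D-Epi, against 5.02 and 5.53 CPM in C2-Epi (log2 3.27 ± 0.27, adjusted p = 1.3e-06), while TGFB1 fell to 40.1 and 41.3 CPM in sgKMT2D-Epi, against 75.9 and 77.6 CPM in C2-Epi (log2 -0.92 ± 0.19, adjusted p = 0.0023). PMEPA1, a target and feedback inhibitor of the pathway, rose to 282 and 269.8 CPM in sgKMT2D-Epi, against 69.2 and 66.3 CPM in C2-Epi (log2 2.02 ± 0.14, adjusted p = 2.3e-07). PMEPA1 averaged 500 CPM in sgControl and 178 CPM in C1. ID2, an inhibitor of basic helix-loop-helix factors, rose to 5.14 and 5.9 CPM in sgKMT2D-Epi, against 0.506 and 0.846 CPM in C2-Epi (log2 3.03 ± 0.29, adjusted p = 4e-06). INHBE, the gene of an activin subunit, fell to 0.106 and 0.239 CPM in sgKMT2D-Epi, against 6.07 and 6.38 CPM in C2-Epi (log2 -5.16 ± 0.54, adjusted p = 9.1e-06). ID2 and PMEPA1 lie in stretches of chromosomes 2 and 20 where neighbouring genes were higher as well, described below.

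In the EGFR and MAPK list 18 of 38 members were lower (47.4%) and 3 higher, with a median of -0.70. None of its measured members lay in a chromosome stretch that was shifted as a whole. FOSB, an immediate early transcription factor, fell to 55.7 and 58.6 CPM in sgKMT2D-Epi, against 316 and 346 CPM in C2-Epi (log2 -2.53 ± 0.34, adjusted p = 8.1e-05). DUSP2, a phosphatase that switches off MAP kinases, fell to 2.48 and 3.19 CPM in sgKMT2D-Epi, against 25.2 and 23.4 CPM in C2-Epi (log2 -3.10 ± 0.34, adjusted p = 1.2e-05). SPRED3, an inhibitor of the RAS pathway, fell to 1.28 and 1.2 CPM in sgKMT2D-Epi, against 9.68 and 9.15 CPM in C2-Epi (log2 -2.92 ± 0.24, adjusted p = 1.1e-06). EPGN, epigen, a ligand of EGFR, rose to 15.5 and 15.3 CPM in sgKMT2D-Epi, against 0.289 and 0.653 CPM in C2-Epi (log2 5.03 ± 0.44, adjusted p = 2.2e-06). The kinase gene MAPK13 fell to 21.1 and 27.6 CPM in sgKMT2D-Epi, against 132 and 131 CPM in C2-Epi (log2 -2.43 ± 0.17, adjusted p = 2.3e-07). HRAS stood at 89.4 and 88.2 CPM in sgKMT2D-Epi, against 115 and 109 CPM in C2-Epi (log2 -0.33, 95% interval -0.69 to 0.03, adjusted p = 0.15). FOSB averaged 896 CPM in sgControl and 143 CPM in C1, so its level also differed widely between these C1-derived groups.

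Notch genes were lower in 8 of 21 cases (38.1%) and higher in 1, which was MAML2, a coactivator of the pathway, at 24.9 and 21.8 CPM in sgKMT2D-Epi, against 8.67 and 11.1 CPM in C2-Epi (log2 1.24 ± 0.25, adjusted p = 0.0017). NOTCH3, a receptor, fell to 1.81 and 3.03 CPM in sgKMT2D-Epi, against 23.8 and 19 CPM in C2-Epi (log2 -3.15 ± 0.36, adjusted p = 2.1e-05). NRARP, a feedback target of Notch, fell to 4.54 and 3.31 CPM in sgKMT2D-Epi, against 13.5 and 13.8 CPM in C2-Epi (log2 -1.79 ± 0.26, adjusted p = 0.00013). HES1, the classical target repressor, fell to 39.8 and 38.5 CPM in sgKMT2D-Epi, against 102 and 87.4 CPM in C2-Epi (log2 -1.27 ± 0.39, adjusted p = 0.023), but no longer passed when any 1 of the 4 libraries was left out (adjusted p between 0.057 and 0.11). HES1 and NRARP lie in stretches of chromosomes 3 and 9 that were shifted down and up as a whole. The 8 lower members became 5 without sgKMT2D-Epi replicate 2 or C2-Epi replicate 2.

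Wnt genes were split evenly, 9 of 42 higher and 9 lower. WNT5B, a non-canonical ligand, rose to 7.05 and 6.85 CPM in sgKMT2D-Epi, against 0.181 and 0.154 CPM in C2-Epi (log2 5.33 ± 0.33, adjusted p = 6.9e-08). WNT7A, another ligand, fell to 1.67 and 2.47 CPM in sgKMT2D-Epi, against 11.1 and 11.7 CPM in C2-Epi (log2 -2.47 ± 0.25, adjusted p = 9.8e-06). RNF43, a ubiquitin ligase that removes Wnt receptors, fell to 4.25 and 4.54 CPM in sgKMT2D-Epi, against 16.9 and 16.8 CPM in C2-Epi (log2 -1.94 ± 0.22, adjusted p = 4.3e-05). DKK1, a secreted Wnt antagonist, rose to 184 and 174 CPM in sgKMT2D-Epi, against 51 and 57 CPM in C2-Epi (log2 1.73 ± 0.16, adjusted p = 2.8e-06). HHIP, which binds hedgehog ligands at the cell surface, was among the 12 largest rises of genes with at least 5 CPM. It stood at 57.5 and 55.1 CPM in sgKMT2D-Epi, against 0.108 and 0.0769 CPM in C2-Epi (log2 9.16 ± 0.35, adjusted p = 5e-09), with 0.0844 CPM in sgControl and 0.103 CPM in C1. In sgEED-Epi HHIP averaged 10.02 CPM.

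Guidance and neural adhesion genes, which in epithelia also shape adhesion and motility, had 19 of 54 members lower (35.2%) and 9 higher. SEMA3B, a secreted semaphorin, fell to 0.78 and 0.598 CPM in sgKMT2D-Epi, against 22 and 21.6 CPM in C2-Epi (log2 -4.97 ± 0.37, adjusted p = 4.2e-07), below the means of 64.4 CPM in sgControl and 48.8 CPM in C1. SEMA3F, a related ligand, fell to 5.25 and 7.77 CPM in sgKMT2D-Epi, against 96.8 and 88.7 CPM in C2-Epi (log2 -3.83 ± 0.38, adjusted p = 7.5e-06). NRP2, the neuropilin that receives class 3 semaphorins, fell to 5.49 and 5.7 CPM in sgKMT2D-Epi, against 37 and 37.6 CPM in C2-Epi (log2 -2.74 ± 0.15, adjusted p = 3.1e-08). CNTN1, a contactin, fell to 0.957 and 1.35 CPM in sgKMT2D-Epi, against 21.8 and 22.9 CPM in C2-Epi (log2 -4.28 ± 0.33, adjusted p = 5.8e-07). All 4 genes were therefore lower in sgKMT2D-Epi than in C2-Epi, sgControl and C1 by group mean.

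Proteases and inhibitors of surface epithelium had the highest share of lower members among the lists with at least 15 measured genes, 10 of 19 (52.6%) against 3 higher, with a median of -1.82. SERPINB7, a serpin of stratified epithelium, fell to 4.29 and 3.9 CPM in sgKMT2D-Epi, against 40.2 and 39.8 CPM in C2-Epi (log2 -3.29 ± 0.20, adjusted p = 8.7e-08). SERPINB13, a related serpin, fell to 0.744 and 0.717 CPM in sgKMT2D-Epi, against 6.47 and 9.15 CPM in C2-Epi (log2 -3.41 ± 0.31, adjusted p = 4e-06). CSTA, a cysteine protease inhibitor of the cornified envelope, fell to 26.3 and 24.4 CPM in sgKMT2D-Epi, against 99.6 and 101 CPM in C2-Epi (log2 -1.98 ± 0.21, adjusted p = 9.1e-06). SLPI, the secretory leukocyte protease inhibitor, rose to 6.2 and 5.14 CPM in sgKMT2D-Epi, against 2.2 and 1.81 CPM in C2-Epi (log2 1.497, adjusted p = 0.0019), and lies on chromosome 20, which was higher as a whole. SLPI averaged 23.2 CPM in sgControl and 14.3 CPM in C1, above both compared groups. Epidermal differentiation genes were lower in 7 of 25 cases (4 without sgKMT2D-Epi replicate 2 or C2-Epi replicate 1) and higher in 2. Those 2 were the partners of an alarmin complex. S100A8 rose to 4.93 and 7.49 CPM in sgKMT2D-Epi, against 0.47 and 0.615 CPM in C2-Epi (log2 3.51 ± 0.43, adjusted p = 3.7e-05). S100A9 rose to 12.8 and 15.3 CPM in sgKMT2D-Epi, against 3 and 3.34 CPM in C2-Epi (log2 2.15 ± 0.37, adjusted p = 0.0006). By group mean S100A8 and S100A9 were higher still in sgControl (9.8 and 20.6 CPM) and in C1 (39.4 and 76 CPM). S100A14, another S100 protein, fell to 239.9 and 223 CPM in sgKMT2D-Epi, against 508 and 496 CPM in C2-Epi (log2 -1.12 ± 0.23, adjusted p = 0.0022).

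Inflammatory genes of the NF-kB list had 9 of 43 higher and 5 lower. The chemokine gene CXCL1 rose to 21.4 and 19.2 CPM in sgKMT2D-Epi, against 2.38 and 1.96 CPM in C2-Epi (log2 3.22 ± 0.58, adjusted p = 0.00086). IL6, a cytokine gene, stood at 8.58 and 7.05 CPM in sgKMT2D-Epi, against 1.37 and 0.999 CPM in C2-Epi (log2 2.71 ± 0.80, adjusted p = 0.019), and the call ended without sgKMT2D-Epi replicate 1 (adjusted p = 0.078), C2-Epi replicate 1 (0.082) or C2-Epi replicate 2 (0.12). CSF3, which encodes granulocyte colony stimulating factor, fell to 0.248 and 0.159 CPM in sgKMT2D-Epi, against 10.4 and 6.76 CPM in C2-Epi (log2 -5.35 ± 0.53, adjusted p = 6.3e-06). IL11, a cytokine of the IL6 family, fell to 2.16 and 2.39 CPM in sgKMT2D-Epi, against 13.2 and 13.5 CPM in C2-Epi (log2 -2.55 ± 0.27, adjusted p = 9.8e-06). Complement component C3 fell to 30.4 and 32.1 CPM in sgKMT2D-Epi, against 241 and 218 CPM in C2-Epi (log2 -2.88 ± 0.67, adjusted p = 0.005). IL20RB, a receptor subunit of the IL20 family, fell to 29.9 and 30.8 CPM in sgKMT2D-Epi, against 184 and 174 CPM in C2-Epi (log2 -2.56 ± 0.20, adjusted p = 5.9e-07). The 9 higher members became 5 without sgKMT2D-Epi replicate 1, C2-Epi replicate 1 or C2-Epi replicate 2, and the 5 lower became 3 without sgKMT2D-Epi replicate 1.

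Interferon response genes had 14 of 53 lower (26.4%) and 9 higher (4 without sgKMT2D-Epi replicate 1 and 5 without C2-Epi replicate 2), with a median of -0.14, or -0.10 with the 6 members at 0 counts in a group at their bounds. OAS3, an antiviral RNA sensor, fell to 42.6 and 43.8 CPM in sgKMT2D-Epi, against 116 and 110.3 CPM in C2-Epi (log2 -1.39 ± 0.14, adjusted p = 5.4e-06). LGALS3BP, a secreted glycoprotein, fell to 8.97 and 12.6 CPM in sgKMT2D-Epi, against 47.7 and 44.1 CPM in C2-Epi (log2 -2.10 ± 0.20, adjusted p = 4.5e-06). UBE2L6, the conjugating enzyme for ISG15, fell to 8.22 and 9.64 CPM in sgKMT2D-Epi, against 29.1 and 26.9 CPM in C2-Epi (log2 -1.65 ± 0.18, adjusted p = 1.4e-05). IFITM3, a membrane protein that restricts virus entry, rose to 132 and 143 CPM in sgKMT2D-Epi, against 56.3 and 50.6 CPM in C2-Epi (log2 1.37 ± 0.15, adjusted p = 1.2e-05). IFITM3 averaged 236 CPM in sgControl and 167 CPM in C1, above both compared groups. HLA-B, a class I antigen presenting gene, fell to 24.4 and 30.7 CPM in sgKMT2D-Epi, against 57.5 and 54.2 CPM in C2-Epi (log2 -1.02 ± 0.23, adjusted p = 0.0036), with an adjusted p of 0.053 without sgKMT2D-Epi replicate 1. TAPBP, a chaperone that loads peptides, fell to 74.5 and 73.9 CPM in sgKMT2D-Epi, against 105 and 106 CPM in C2-Epi (log2 -0.51 ± 0.14, adjusted p = 0.012), and the call ended when any 1 of the 4 libraries was left out (adjusted p between 0.056 and 0.071). Antigen presentation genes had 5 of 24 lower (2 without sgKMT2D-Epi replicate 1 and 3 without C2-Epi replicate 2) and 1 higher.

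Cell cycle genes were higher in 12 of 41 cases (29.3%) and lower in 1. CCNE2, a cyclin of the G1 to S transition, rose to 24.9 and 20.6 CPM in sgKMT2D-Epi, against 3.79 and 4.11 CPM in C2-Epi (log2 2.52 ± 0.30, adjusted p = 3e-05). Its relative CCNE1 rose to 13.7 and 12.6 CPM in sgKMT2D-Epi, against 5.85 and 5.11 CPM in C2-Epi (log2 1.26 ± 0.29, adjusted p = 0.0041). E2F1, the factor that drives S phase genes, rose to 27.7 and 29.8 CPM in sgKMT2D-Epi, against 9.03 and 7.69 CPM in C2-Epi (log2 1.78 ± 0.33, adjusted p = 0.0011). RRM2, a ribonucleotide reductase subunit, rose to 295 and 264 CPM in sgKMT2D-Epi, against 89.6 and 87.1 CPM in C2-Epi (log2 1.66 ± 0.21, adjusted p = 4.9e-05). E2F1 and RRM2 are among 11 members that lie in chromosome stretches shifted as a whole. Outside those stretches 4 of 30 members were higher and 0 lower, beside 13.2% of all genes called higher outside them. Among CDK inhibitors and p53 targets 2 of 24 were higher and 1 lower. TP53I3, a p53-induced oxidoreductase, rose to 73.4 and 85.7 CPM in sgKMT2D-Epi, against 34.4 and 34 CPM in C2-Epi (log2 1.22 ± 0.17, adjusted p = 8.8e-05). TP53I3 averaged 178 CPM in sgControl and 87.2 CPM in C1. BTG2, an antiproliferative gene, fell to 48.3 and 54.4 CPM in sgKMT2D-Epi, against 125 and 125 CPM in C2-Epi (log2 -1.28 ± 0.38, adjusted p = 0.021), and the call ended when any 1 of the 4 libraries was left out (adjusted p between 0.07 and 0.12).

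Amino acid and lipid supply genes were mostly lower where they were called. In the ATF4 list, which covers the response to amino acid shortage, 12 of 29 members fell (41.4%, 7 of 29 without sgKMT2D-Epi replicate 1) and 2 rose. CHAC1, which degrades glutathione, fell to 5.17 and 6.17 CPM in sgKMT2D-Epi, against 21.8 and 22.4 CPM in C2-Epi (log2 -1.96 ± 0.27, adjusted p = 9.8e-05). ASNS, asparagine synthetase, fell to 73.5 and 73.3 CPM in sgKMT2D-Epi, against 168 and 192 CPM in C2-Epi (log2 -1.29 ± 0.14, adjusted p = 1.3e-05). CTH, a cysteine-producing enzyme, fell to 6.49 and 6.45 CPM in sgKMT2D-Epi, against 17.2 and 20.1 CPM in C2-Epi (log2 -1.53 ± 0.24, adjusted p = 0.00028). STC2, the secreted glycoprotein stanniocalcin, rose to 182 and 163 CPM in sgKMT2D-Epi, against 38.9 and 40.4 CPM in C2-Epi (log2 2.12 ± 0.39, adjusted p = 0.0011). These genes also varied among unedited C1 cells and their controls: CHAC1 averaged 55.3 CPM in sgControl and 6.09 CPM in C1, and ASNS 398 CPM in sgControl and 78.5 CPM in C1.

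Cholesterol and fatty acid synthesis genes had 9 of 33 lower and 2 higher, and the 9 became 4 without sgKMT2D-Epi replicate 1 and 5 without each of the other 3 libraries. ELOVL6, a fatty acid elongase, fell to 32.7 and 30.6 CPM in sgKMT2D-Epi, against 99.6 and 99.1 CPM in C2-Epi (log2 -1.65 ± 0.25, adjusted p = 0.0002). FADS2, a desaturase, fell to 14.2 and 14 CPM in sgKMT2D-Epi, against 51 and 45.3 CPM in C2-Epi (log2 -1.77 ± 0.21, adjusted p = 2.2e-05). In the hypoxia and glycolysis list 8 of 33 fell and 6 rose (3 without sgKMT2D-Epi replicate 2 or either C2-Epi library). The carbonic anhydrase gene CA9 fell to 0.815 and 0.637 CPM in sgKMT2D-Epi, against 9.07 and 8.69 CPM in C2-Epi (log2 -3.60 ± 0.46, adjusted p = 5.8e-05). VEGFA, the endothelial growth factor, fell to 82.3 and 75.2 CPM in sgKMT2D-Epi, against 291 and 332 CPM in C2-Epi (log2 -1.98 ± 0.26, adjusted p = 6.2e-05). EGLN3, an oxygen-sensing prolyl hydroxylase, rose to 13.8 and 17.5 CPM in sgKMT2D-Epi, against 2.35 and 2.92 CPM in C2-Epi (log2 2.57 ± 0.20, adjusted p = 4.6e-07). EGLN3 averaged 14.1 CPM in sgControl and 27.5 CPM in C1. NRF2 and redox genes split, 5 of 31 higher (3 without sgKMT2D-Epi replicate 1 and 2 without C2-Epi replicate 1) and 5 lower, with 3 of 29 higher outside shifted stretches. ABCC3, a drug and bile salt exporter, fell to 31.7 and 34.1 CPM in sgKMT2D-Epi, against 107 and 110 CPM in C2-Epi (log2 -1.72 ± 0.14, adjusted p = 8.2e-07), while HMOX1, haem oxygenase, rose to 6.49 and 7.09 CPM in sgKMT2D-Epi, against 3.32 and 3.04 CPM in C2-Epi (log2 1.09 ± 0.23, adjusted p = 0.002).

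**Figure D2:**
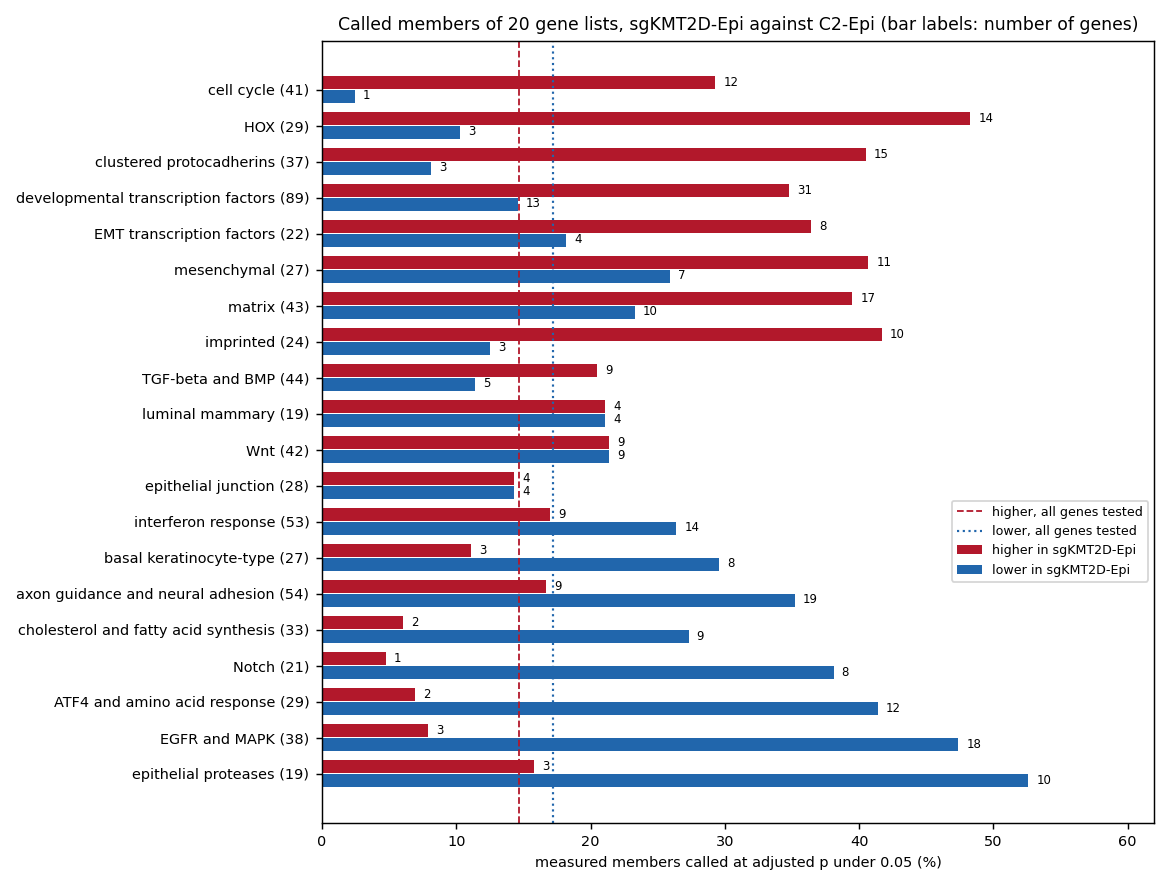
Share of measured members (horizontal axis, %) called higher or lower in sgKMT2D-Epi for 20 gene lists, with the number measured in brackets and the number called at each bar; dashed and dotted lines mark 14.7% and 17.2% for all genes tested. HOX genes reach 48.3% higher, and epithelial proteases 52.6% and EGFR and MAPK genes 47.4% lower.

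Chromatin regulators were called at about the rate of all genes. Of 27 COMPASS genes 4 were higher and 5 lower, and of 37 Polycomb genes 6 were higher and 8 lower (5 without sgKMT2D-Epi replicate 1 or C2-Epi replicate 1). Outside shifted stretches 2 of 21 COMPASS genes were higher and 3 lower, and 3 of 33 Polycomb genes were higher and 8 lower. KMT2C, the closest relative of KMT2D, stood at 113 and 111 CPM in sgKMT2D-Epi, against 78.6 and 92.7 CPM in C2-Epi (log2 0.38, 95% interval -0.30 to 1.07, adjusted p = 0.4). KDM6A, a histone H3 demethylase that acts with KMT2D, fell to 31 and 30.5 CPM in sgKMT2D-Epi, against 53.4 and 57.6 CPM in C2-Epi (log2 -0.85 ± 0.17, adjusted p = 0.0016). KDM5B, which removes the mark that other COMPASS enzymes write, fell to 96.2 and 95.2 CPM in sgKMT2D-Epi, against 164 and 173 CPM in C2-Epi (log2 -0.82 ± 0.12, adjusted p = 0.00022). KDM5C, its relative on the X chromosome, fell to 77.7 and 89.6 CPM in sgKMT2D-Epi, against 163 and 159 CPM in C2-Epi (log2 -0.94 ± 0.17, adjusted p = 0.00086). EED rose to 38 and 38.3 CPM in sgKMT2D-Epi, against 19.7 and 18.1 CPM in C2-Epi (log2 1.01 ± 0.14, adjusted p = 0.00013), and lies on the raised part of chromosome 11. EZH2 stood at 49 and 42.6 CPM in sgKMT2D-Epi, against 34.5 and 36.8 CPM in C2-Epi (log2 0.36, 95% interval 0.04 to 0.69, adjusted p = 0.087). BCOR, a Polycomb partner on the X chromosome, rose to 24.9 and 24.6 CPM in sgKMT2D-Epi, against 12.7 and 12.1 CPM in C2-Epi (log2 1.00 ± 0.15, adjusted p = 0.00021).

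RBBP7, a histone-binding subunit, rose to 504 and 509 CPM in sgKMT2D-Epi, against 242 and 244 CPM in C2-Epi (log2 1.06 ± 0.19, adjusted p = 0.0008), and lies on the raised end of chromosome X. L3MBTL2, a Polycomb-type repressor, rose to 31.1 and 36.1 CPM in sgKMT2D-Epi, against 17.2 and 15.8 CPM in C2-Epi (log2 1.02 ± 0.17, adjusted p = 0.00042). KMT2A, a COMPASS enzyme on the raised part of chromosome 11, rose to 142 and 139 CPM in sgKMT2D-Epi, against 76.5 and 79.3 CPM in C2-Epi (log2 0.85 ± 0.23, adjusted p = 0.013), a call that ended when any 1 of the 4 libraries was left out (adjusted p between 0.051 and 0.078). Of the DNA methyltransferases, DNMT3B on chromosome 20 rose to 11.5 and 10.9 CPM in sgKMT2D-Epi, against 5.71 and 4.57 CPM in C2-Epi (log2 1.12 ± 0.18, adjusted p = 0.00031). DNMT3A fell to 10.9 and 9.4 CPM in sgKMT2D-Epi, against 16.8 and 17.8 CPM in C2-Epi (log2 -0.77 ± 0.15, adjusted p = 0.0017). Of 16 DNA methylation genes 2 were higher and 2 lower, and outside shifted stretches 1 of 15 was higher.

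Developmental regulators, many of them held silent by Polycomb in adult tissue, were called higher in 34.8% of cases beside 14.7% of all genes tested. Of 89 measured developmental transcription factors 31 were higher and 13 lower (14.6%, 8 of 89 without sgKMT2D-Epi replicate 2). Their median log2 difference was 0.46, and 0.00 when the 14 members at 0 counts in a group were set to their bounds. TBX18, a T-box factor of mesoderm, rose to 29.6 and 27.3 CPM in sgKMT2D-Epi, against 0.686 and 0.846 CPM in C2-Epi (log2 5.21 ± 0.28, adjusted p = 3.2e-08). SIX2, a factor of kidney progenitors, rose to 11.7 and 13 CPM in sgKMT2D-Epi, against 0.65 and 0.423 CPM in C2-Epi (log2 4.50 ± 0.30, adjusted p = 1.4e-07). NKX2-5, a heart factor, stood at 7.8 and 9.12 CPM in sgKMT2D-Epi, against 0.0722 and 0.154 CPM in C2-Epi (log2 6.18 ± 0.35, adjusted p = 8.7e-08), with 16.9 CPM in sgControl and 7.83 CPM in C1. TBX18 and SIX2 were thus higher than in sgControl and C1 too, while NKX2-5 was low in C2-Epi alone of these groups. In sgEED-Epi TBX18 averaged 4.88 CPM, SIX2 4.54 CPM and NKX2-5 9.89 CPM.

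HOX genes, which set position along the body axis, were higher in 14 of 29 cases (48.3%) and lower in 3, with a median of 0.83, or 0.50 with bounds. HOXB9 rose to 8.05 and 9.04 CPM in sgKMT2D-Epi, against 0.759 and 1.04 CPM in C2-Epi (log2 3.25 ± 0.35, adjusted p = 1.4e-05). HOXC10 rose to 8.86 and 7.89 CPM in sgKMT2D-Epi, against 1.37 and 0.922 CPM in C2-Epi (log2 2.86 ± 0.31, adjusted p = 1.3e-05). HOXB7 rose to 8.08 and 7.65 CPM in sgKMT2D-Epi, against 2.46 and 1.5 CPM in C2-Epi (log2 1.99 ± 0.37, adjusted p = 0.00099). HOXC4 fell to 13 and 10.5 CPM in sgKMT2D-Epi, against 24.1 and 22 CPM in C2-Epi (log2 -0.97 ± 0.18, adjusted p = 0.00089). In sgControl and C1 HOXB9 averaged 31.5 and 7.36 CPM, HOXC10 8 and 3.39 CPM, and HOXB7 8.51 and 6.21 CPM. By group mean HOXB9, HOXC10 and HOXB7 were thus lower in C2-Epi than in sgControl and C1. HOXC4 averaged 16 CPM in sgControl and 17.6 CPM in C1, between the 2 compared groups. HOX genes overlap their neighbours and antisense RNAs, and the strand setting of the counts is not given in the sources used here. Clustered protocadherins, neuronal cell identity genes that share exons, had 15 of 37 members higher (8 without C2-Epi replicate 1 and 9 without replicate 2) and 3 lower. None of them reached 5 CPM in either group while being called, so no member is named.

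Imprinted genes, expressed from 1 parental copy, were higher in 10 of 24 cases and lower in 3. IGF2, a growth factor of the embryo, rose to 18.1 and 14.6 CPM in sgKMT2D-Epi, against 3 and 2.92 CPM in C2-Epi (log2 2.47 ± 0.37, adjusted p = 0.00021). IGF2 averaged 26.9 CPM in sgControl and 11.7 CPM in C1. MEG3, a long non-coding RNA, rose to 23.8 and 25.5 CPM in sgKMT2D-Epi, against 6.61 and 7.3 CPM in C2-Epi (log2 1.82 ± 0.36, adjusted p = 0.0016). GRB10, an adaptor that dampens insulin signalling, rose to 50.2 and 48.2 CPM in sgKMT2D-Epi, against 10.3 and 11.8 CPM in C2-Epi (log2 2.15 ± 0.15, adjusted p = 2.5e-07). MEG3 averaged 46.6 CPM in sgControl and 52.2 CPM in C1, so by group mean it was lower in sgKMT2D-Epi and C2-Epi than in those groups, while C1 cells with a guide against EED in the epithelial state (sgEED-Epi) averaged 104.9 CPM. TEX15, a gene of male germ cells that is not imprinted, rose to 29.1 and 24 CPM in sgKMT2D-Epi, against 0.361 and 0.269 CPM in C2-Epi (log2 6.37 ± 0.74, adjusted p = 2.8e-05). TEX15 averaged 0.127 CPM in sgControl and 0.918 CPM in C1, but 21.9 CPM in sgEED-Epi.

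Some genes were present in one epithelium and near 0 in the other. With at least 5 CPM in one group and at most 0.1 CPM in the other, 33 called genes were present in sgKMT2D-Epi and 14 in C2-Epi. Of the 33, 16 also had at least 1 CPM in both C1 and sgControl, and 8 had under 1 CPM in both. In C2-Mes, 14 of the 33 were at most 0.1 CPM as well and 12 reached 1 CPM. Of the 14 present in C2-Epi, 2 had at least 1 CPM in both C1 and sgControl and 7 had under 1 CPM in both. These sets were drawn by level, so their size is a description and not a test.

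The promoters of 4 such genes are shown because their transcripts marked one epithelium or the other. The sequences run 5′ to 3′ on the strand of the gene, from 250 bases before to 50 bases after the start site in RefSeq (GRCh38.p14), and CG dinucleotides are in capitals. They lie at chr20:46513510-46513809 (ZNF334, minus strand), chr4:144645906-144646205 (HHIP, plus strand), chr2:181457136-181457435 (ITGA4, plus strand) and chrX:84188150-84188449 (RPS6KA6, minus strand).
ZNF334: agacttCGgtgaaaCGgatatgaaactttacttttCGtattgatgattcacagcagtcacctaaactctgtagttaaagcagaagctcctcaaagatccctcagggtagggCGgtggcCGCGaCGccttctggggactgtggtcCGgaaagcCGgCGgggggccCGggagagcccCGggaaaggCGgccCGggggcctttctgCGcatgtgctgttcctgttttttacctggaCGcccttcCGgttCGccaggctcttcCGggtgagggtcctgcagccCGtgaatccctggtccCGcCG
HHIP: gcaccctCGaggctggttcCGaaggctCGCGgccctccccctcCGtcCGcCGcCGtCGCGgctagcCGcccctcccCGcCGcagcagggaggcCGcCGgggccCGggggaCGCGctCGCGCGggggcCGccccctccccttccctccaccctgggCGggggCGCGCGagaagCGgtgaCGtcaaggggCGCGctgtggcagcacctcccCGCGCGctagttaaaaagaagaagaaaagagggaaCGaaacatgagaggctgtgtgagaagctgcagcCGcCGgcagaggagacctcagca
ITGA4: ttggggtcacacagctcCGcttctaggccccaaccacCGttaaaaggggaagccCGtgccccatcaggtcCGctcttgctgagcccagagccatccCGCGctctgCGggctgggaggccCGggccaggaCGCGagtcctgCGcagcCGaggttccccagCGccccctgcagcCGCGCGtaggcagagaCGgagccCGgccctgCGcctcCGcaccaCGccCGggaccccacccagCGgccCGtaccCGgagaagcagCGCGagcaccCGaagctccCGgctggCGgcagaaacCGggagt
RPS6KA6: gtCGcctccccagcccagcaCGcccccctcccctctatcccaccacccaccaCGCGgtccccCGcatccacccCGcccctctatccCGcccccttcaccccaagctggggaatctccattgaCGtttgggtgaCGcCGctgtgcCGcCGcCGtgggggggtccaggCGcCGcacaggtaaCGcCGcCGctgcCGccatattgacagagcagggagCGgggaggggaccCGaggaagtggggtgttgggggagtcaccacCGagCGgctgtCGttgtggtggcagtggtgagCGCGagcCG

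The dinucleotide CG, read the same on both strands, occurred 22 times in the ZNF334 promoter, 36 times in that of HHIP, 31 times in that of ITGA4 and 27 times in that of RPS6KA6. Of the 12273 promoters matched to tested genes, 62.7% held at least 22, 20.9% at least 36, 34.3% at least 31 and 46.8% at least 27. DNA methylation was not measured. ZNF334, a zinc finger gene, stood at 28 and 24.7 CPM in sgKMT2D-Epi, against 0.0361 and 0.0769 CPM in C2-Epi, with a ratio of the summed counts, scaled to library size, of 473 (95% counting interval 161 to 2294), and at 17.2 CPM in sgControl and 20.9 CPM in C1 by group mean. ITGA4, an integrin subunit of migrating cells, had 3 counts in sgKMT2D-Epi and stood at 0 and 0.119 CPM in sgKMT2D-Epi, against 10.6 and 12.6 CPM in C2-Epi. C2-Epi was higher in the ratio of summed counts, scaled to library size, by 206.2 (95% counting interval 70.2 to 1003). ITGA4 also averaged 37.2 CPM in sgEED-Epi and 14.5 CPM in sgKMT2D-Mes, so it was not particular to C2-Epi. RPS6KA6, a kinase of the RSK family, had 0 counts in both sgKMT2D-Epi libraries and stood at 0 and 0 CPM in sgKMT2D-Epi, against 8.6 and 11.3 CPM in C2-Epi, at least 88.0-fold lower. It was also at 0 in C1 and sgControl.

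Further genes with the largest rises are given in full. FLI1, an ETS transcription factor of blood and endothelium, stood at 57.2 and 56.1 CPM in sgKMT2D-Epi, against 0 and 0.192 CPM in C2-Epi (log2 9.17 ± 0.43, adjusted p = 1e-08), with 46.8 CPM in sgControl and 34 CPM in C1, and lies on the raised part of chromosome 11. MARCH4, a membrane-bound ubiquitin ligase, had 2 counts in C2-Epi and stood at 26 and 26.2 CPM in sgKMT2D-Epi, against 0.0722 and 0 CPM in C2-Epi. PLXDC2, a membrane protein, had 1 count in C2-Epi and stood at 18.4 and 16.8 CPM in sgKMT2D-Epi, against 0.0361 and 0 CPM in C2-Epi. EDIL3, a secreted integrin ligand, also had 1 count in C2-Epi and stood at 29.6 and 24.8 CPM in sgKMT2D-Epi, against 0.0361 and 0 CPM in C2-Epi, and averaged 0.317 CPM in sgControl and 0.104 CPM in C1. LIMCH1, an activator of non-muscle myosin, stood at 8.82 and 6.81 CPM in sgKMT2D-Epi, against 0 and 0 CPM in C2-Epi, at least 69.9-fold higher. OMD, the small proteoglycan osteomodulin, stood at 6.77 and 4.42 CPM in sgKMT2D-Epi, against 0 and 0 CPM in C2-Epi, at least 50.03-fold higher. LIMCH1 was at similar means in the C1 groups, 9.34 CPM in sgControl and 4.2 CPM in C1, and OMD was at 0 in both of them. In sgEED-Epi EDIL3 averaged 9.5 CPM, PLXDC2 20.6 CPM, MARCH4 37.4 CPM and OMD 0.505 CPM.

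On the other side, CHRDL1, an antagonist of BMP ligands, had 0 counts in both sgKMT2D-Epi libraries and stood at 0 and 0 CPM in sgKMT2D-Epi, against 5.13 and 5.53 CPM in C2-Epi, at least 47.2-fold lower. BCHE, butyrylcholinesterase, stood at 0.0354 and 0.239 CPM in sgKMT2D-Epi, against 20.6 and 21.4 CPM in C2-Epi (log2 -7.26 ± 0.44, adjusted p = 6.9e-08). NTSR1, the receptor of neurotensin, had 3 counts in sgKMT2D-Epi and stood at 0.0709 and 0.0398 CPM in sgKMT2D-Epi, against 12.1 and 11.5 CPM in C2-Epi. DNALI1, an axonemal dynein chain, had 1 count in sgKMT2D-Epi and stood at 0 and 0.0398 CPM in sgKMT2D-Epi, against 10.1 and 9.69 CPM in C2-Epi. CDHR1, a photoreceptor cadherin, also had 1 count in sgKMT2D-Epi and stood at 0.0354 and 0 CPM in sgKMT2D-Epi, against 6.86 and 7.34 CPM in C2-Epi. HPCAL4, a neuronal calcium sensor, stood at 0.213 and 0.159 CPM in sgKMT2D-Epi, against 24.6 and 26.2 CPM in C2-Epi (log2 -7.05 ± 0.47, adjusted p = 1.7e-07), with 11.8 CPM in sgControl and 5.79 CPM in C1. Of these, BCHE and NTSR1 lie in shifted stretches of chromosomes 3 and 20, and NTSR1 fell where its neighbours were higher.

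Zinc finger genes of chromosome 19 were looked at after ZNF334 of chromosome 20, and ZNF569 and ZNF793 of chromosome 19, were seen near 0 in C2-Epi. Of 201 measured protein-coding ZNF genes on that chromosome 47 were higher (23.4%) and 12 lower (5.97%), while 8.08% of the other 1002 measured genes there were higher and 22.8% lower. Levels of at most 0.1 CPM were found for 1 of the 201 in sgKMT2D-Epi and for 13 in C2-Epi. The 13 include ZNF569 and ZNF793, which prompted the count, so it is a description and adds no support. Of the other 1002 genes of chromosome 19, 93 were that low in sgKMT2D-Epi and 55 in C2-Epi. Over all chromosomes 94 of 443 ZNF genes were higher (21.2%) and 64 lower (14.4%). ZNF793 stood at 7.44 and 6.93 CPM in sgKMT2D-Epi, against 0 and 0.0384 CPM in C2-Epi, with 2.48 CPM in sgControl and 4.11 CPM in C1. ZNF569 stood at 5.67 and 5.18 CPM in sgKMT2D-Epi, against 0.0361 and 0 CPM in C2-Epi. Genes of this family resemble one another in sequence, so some reads may be shared between them. How such reads were counted is not given in the sources used here.

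Position on the chromosomes, which the choice of groups did not use, went with the direction of many calls. Chromosome 16 had 328 of 810 tested genes lower (40.5%) and 49 higher, with a median log2 difference of -0.59. Chromosome 20 had 215 of 481 higher (44.7%) and 38 lower, with a median of 0.53. Between sgKMT2D-Mes and C2-Mes the medians of the same chromosomes were 0.00 and -0.06. With genes of at least 10 CPM alone, chromosome 16 had a median of -0.40 and chromosome 20 of 0.62.

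**Figure D3:**
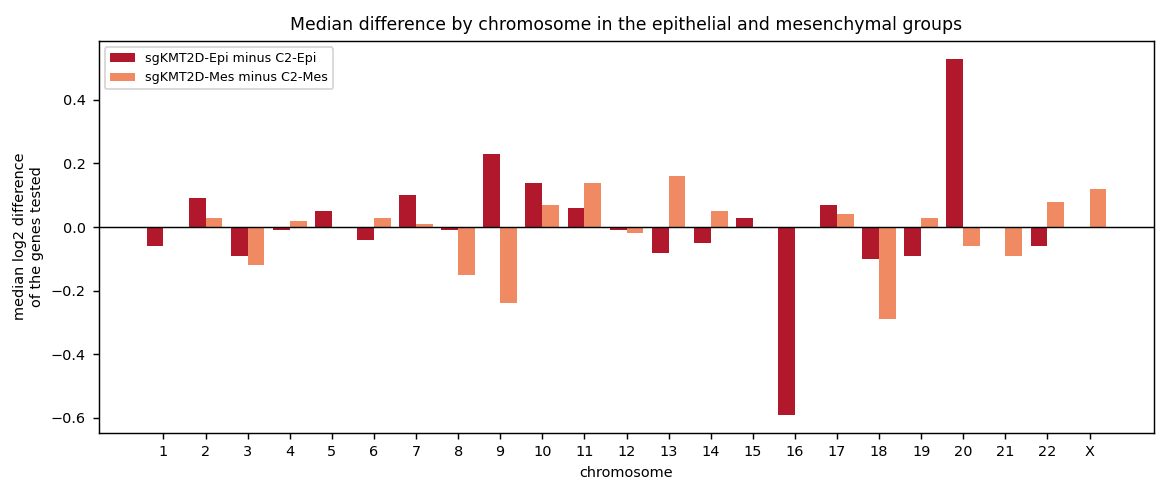
Median log2 difference of all tested genes (vertical axis) by chromosome, for sgKMT2D-Epi minus C2-Epi and for sgKMT2D-Mes minus C2-Mes. Chromosomes 16 (-0.59) and 20 (0.53) stand out in the epithelial comparison and not in the mesenchymal one (0.00 and -0.06).

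Runs of about 40 neighbouring genes with at least 5 CPM on average over the 4 libraries were then taken, and 13 stretches had a median difference of 0.4 or more in size, 7 higher and 6 lower. They held 2132 (11.7%) of the genes tested. In the 7 higher stretches 522 of 1127 tested genes were called higher and 84 lower, and in the 6 lower stretches 504 of 1005 were called lower and 43 higher. Outside them 2131 of 16153 genes (13.2%) were called higher and 2560 (15.8%) lower. The stretches were chosen by this difference, so their own counts are a description.

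The stretches differed in which group stood away from C1. On chromosome 16, from 46407 to 48620148 (GRCh38), the median level relative to C1 was -1.07 and -0.99 log2 in sgKMT2D-Epi, against -0.26 and -0.32 in C2-Epi, and it lay between -0.36 and 0.13 in sgKMT2D-Mes, C2-Mes and sgControl. On chromosome 20, from 296968 to 64287821, sgKMT2D-Epi stood at 0.04 and 0.08 and C2-Epi at -0.50 and -0.53, with -0.61 and -0.65 in sgKMT2D-Mes and -0.49 and -0.45 in C2-Mes. Chromosome 11 had a lower and a higher part. From 68261335 to 83286407 the medians were -0.10 and -0.04 in sgKMT2D-Epi and 0.91 and 0.83 in C2-Epi, and from 85628573 to 134265855 they were 0.26 and 0.24 in sgKMT2D-Epi and -0.91 and -0.82 in C2-Epi. C2-Mes stood with C2-Epi in both, at 0.94 and 1.00 in the first and -0.80 and -0.95 in the second.

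INTS4, an Integrator subunit in the first stretch of chromosome 11, stood at 25 and 24.1 CPM in sgKMT2D-Epi, against 103 and 101 CPM in C2-Epi (log2 -2.05 ± 0.14, adjusted p = 2.3e-07). NARS2, a mitochondrial tRNA synthetase beside it, stood at 28.1 and 29.7 CPM in sgKMT2D-Epi, against 127 and 129 CPM in C2-Epi (log2 -2.15 ± 0.16, adjusted p = 3.2e-07). Both were picked after their values were seen. FLI1, EED, MAML2, TAGLN, THY1 and KMT2A lie in the second. The start of chromosome 18, from 158383 to 21111851, had medians of 0.21 and 0.18 in sgKMT2D-Epi and 1.13 and 1.17 in C2-Epi, and C2-Mes shared the rise with 1.29 and 0.78. The start of chromosome 2, from 38814 to 20052028, had 0.24 and 0.23 in sgKMT2D-Epi and -0.72 and -0.65 in C2-Epi, but 0.27 and 0.04 in C2-Mes. DNA copy number was not measured, and its part in these levels was not tested.

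**Figure D4:**
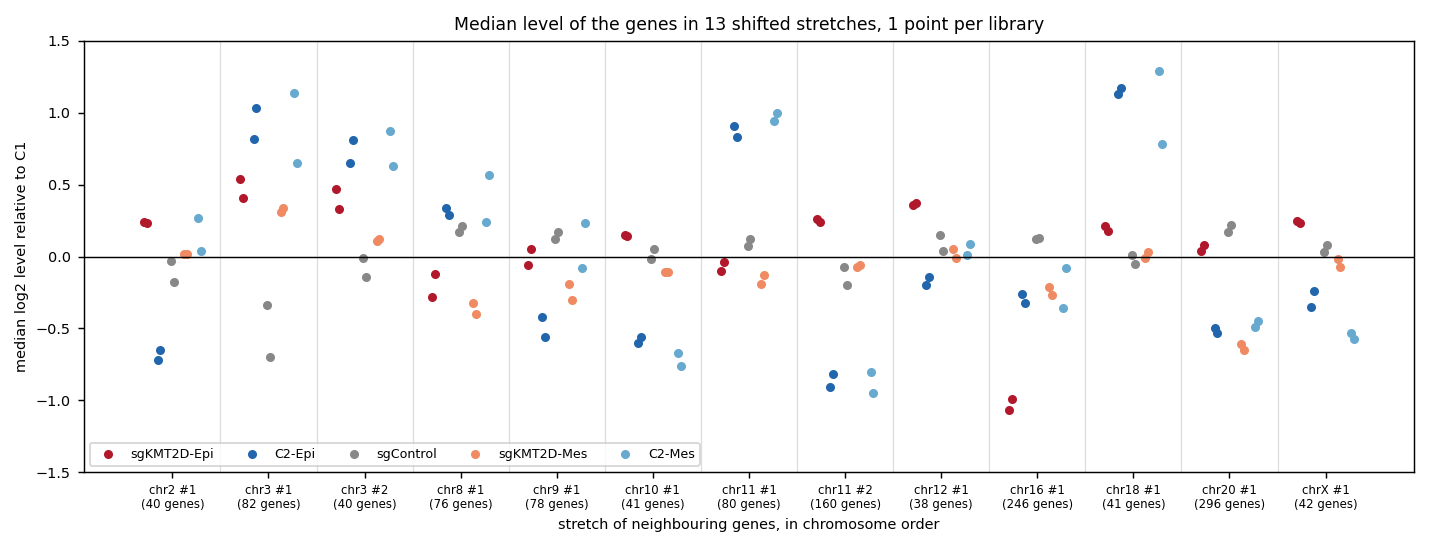
Median log2 level relative to the C1 mean (vertical axis) of the genes in 13 stretches of neighbouring genes, 1 point per library, for 5 groups. On chromosome 16 the sgKMT2D-Epi libraries lie lowest (-1.07 and -0.99), and on chromosome 11 both C2 groups lie away from 0.

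The same contrast of origins was available between mesenchymal groups, sgKMT2D-Mes against C2-Mes, which shares no library with the epithelial one. Of the 2696 genes higher in sgKMT2D-Epi, 970 (36.0%) were also called higher in sgKMT2D-Mes, 32.8% of the 2959 mesenchymal calls (16.2% of genes tested). Of the 3148 lower genes 1044 (33.2%) were called lower there, 33.2% of the 3144 mesenchymal calls (17.2% of genes tested). The opposite call was made for 311 of the higher genes (11.5%) and 401 of the lower genes (12.7%), 712 in all. That number lay between 408 and 445 when 1 of the 4 epithelial libraries was left out. The 2 C2-Mes libraries resembled each other less than other replicates (r = 0.967). Leaving out C2-Mes replicate 1 gave 2374 shared and 912 opposite calls, and leaving out replicate 2 gave 2649 and 1281, against 2014 and 712 with both.

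TGFB2 and GATA3 differed by nearly the same log2 value in both states. TGFB2 stood at 42.5 and 44.5 CPM in sgKMT2D-Mes and 6.37 and 3.04 CPM in C2-Mes (log2 3.25, adjusted p = 9.5e-07). GATA3 stood at 68.8 and 59 CPM in sgKMT2D-Mes and 8.82 and 7.03 CPM in C2-Mes (log2 3.02, adjusted p = 1.7e-07). The interaction, which tests whether the difference changes with state, passed for 4410 genes (24.1%), 6759 without C2-Mes replicate 2, and passed for neither of these (adjusted p = 1.0 and 0.99). NOTCH3 was lower in both states as well, with 55.2 and 49.9 CPM in sgKMT2D-Mes and 441 and 209 CPM in C2-Mes (log2 -2.63, adjusted p = 2.8e-05, interaction adjusted p = 0.46). The interaction passed for FOXC2, VCAN and TBX18, which differed between the epithelia (interaction adjusted p = 1.2e-07, 8.5e-06 and 3.3e-07). FOXC2 stood at 63.9 and 69.9 CPM in sgKMT2D-Mes and 81.6 and 73.1 CPM in C2-Mes (log2 -0.21, adjusted p = 0.39). VCAN stood at 153 and 152 CPM in sgKMT2D-Mes and 277 and 139 CPM in C2-Mes (log2 -0.45, adjusted p = 0.41). TBX18 stood at 135 and 152 CPM in sgKMT2D-Mes and 156 and 108 CPM in C2-Mes (log2 0.13, adjusted p = 0.68).

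KRT14 was lower in both states, at 2.8 and 3.46 CPM in sgKMT2D-Mes and 6.95 and 11.1 CPM in C2-Mes (log2 -1.54, adjusted p = 0.00014), with a larger difference between the epithelia (interaction adjusted p = 1e-05). ASNS and CHAC1 of the ATF4 list were lower in both states too, with the larger difference between the mesenchymal groups. ASNS stood at 19.9 and 22.5 CPM in sgKMT2D-Mes and 205 and 204 CPM in C2-Mes (log2 -3.27, adjusted p = 4.9e-09). CHAC1 stood at 1.55 and 2.1 CPM in sgKMT2D-Mes and 49.8 and 58.1 CPM in C2-Mes (log2 -4.89, adjusted p = 5.8e-08). Interferon response genes, with 9 higher and 14 lower of 53 between the epithelia, had 44 higher and 2 lower between the mesenchymal groups. EGFR and MAPK genes had 18 of 38 lower in each comparison and 8 higher in the mesenchymal one. ATF4 genes had 23 of 29 lower and 1 higher between the mesenchymal groups.

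**Figure D5:**
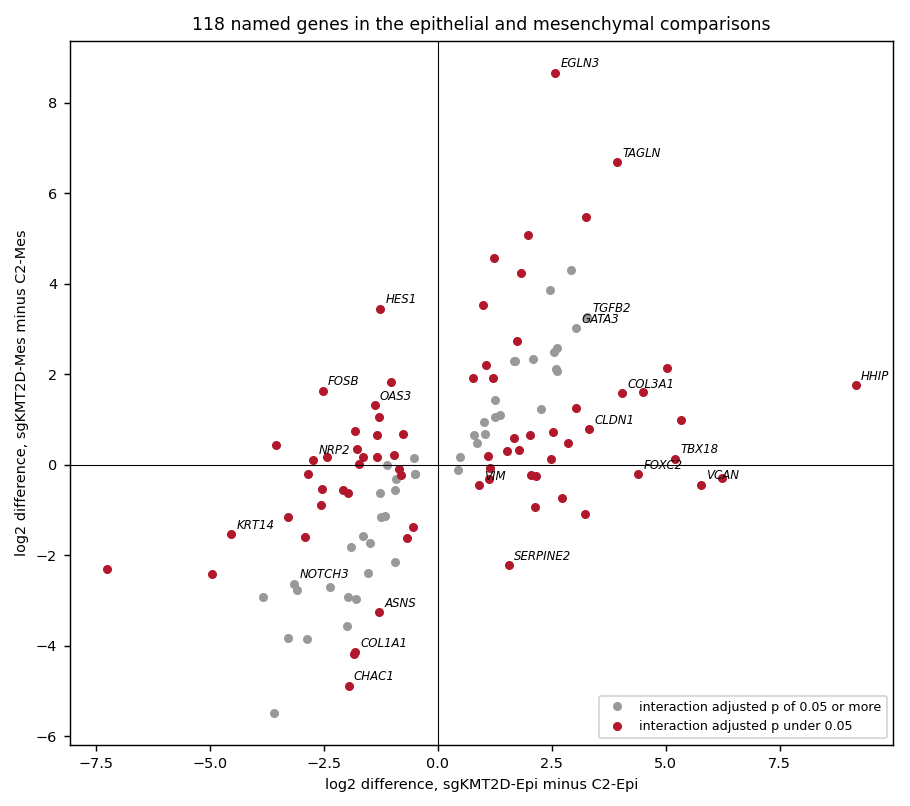
Log2 differences of 118 named genes that passed the test between the epithelia (horizontal axis, sgKMT2D-Epi minus C2-Epi) and of the same genes between the mesenchymal groups (vertical axis, sgKMT2D-Mes minus C2-Mes); red points, 73 of the 118, passed the interaction test. FOXC2, VCAN and TBX18 lie near 0 on the vertical axis, and FOSB, HES1 and OAS3 have opposite signs.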

How the data were processed

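Total RNA was sequenced in 16 libraries of 8 groups of 2. The deposited values are raw read counts per Ensembl gene, made by the authors with STAR 2.7.1a and featureCounts on GRCh38, per the submitters' processing notes. The annotation release, strand setting and treatment of multiply mapped reads are not given in the sources used here. Symbols and coordinates were matched through GENCODE 29, for 56868 of 60448 genes (94.1%). Here edgeR 4.0.16 (R 4.3.3) kept 18285 genes by filterByExpr, scaled them by TMM and fitted 1 mean per group over all 16 libraries (quasi-likelihood test, Benjamini-Hochberg over all genes, threshold 0.05). CPM are counts scaled by library total and TMM factor. A fold bound took 3 counts per library as the floor of a gene at 0, and counting intervals cover counting error only. Named genes were the 12 highest and 12 lowest differences with at least 5 CPM, the 6 and 6 with at least 100 CPM, up to 4 called members of each list and a set of EMT and chromatin genes, of which not all are printed, and some results are not reported here. The groups, lists and genes were chosen with earlier results of these data known. Alternatives were DESeq2 1.42.0, other filters, scalings and library sets, a GC content and length correction and a replicate block. Each of the 4 compared libraries and each C2-Mes library was also left out in turn. The procedure was tested on simulated counts.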

Additional observations from a re-analysis of the deposited data

Results flagged for a closer look

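For 9 of the genes described above, edgeR's test passed in opposite directions between the epithelia and between the mesenchymal groups, the interaction test passed, and each of the 4 groups had over 3 counts. EDIL3 met all but the last, with 1 count in C2-Epi, and stood at 1.92 and 1.49 CPM in sgKMT2D-Mes and 15.3 and 3.8 CPM in C2-Mes. Each of the 9 is given as the epithelial minus the mesenchymal log2 difference.

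An interferon gene and an antigen presenting gene were lower in sgKMT2D-Epi than in C2-Epi. OAS3 stood at 102 and 98.8 CPM in sgKMT2D-Mes and 35.6 and 45.3 CPM in C2-Mes, an interaction of -2.70. HLA-B stood at 160.1 and 159.8 CPM in sgKMT2D-Mes and 56.1 and 34.7 CPM in C2-Mes, an interaction of -2.84. The immediate early gene FOSB stood at 415 and 309.5 CPM in sgKMT2D-Mes and 169 and 64.6 CPM in C2-Mes, an interaction of -4.17. HES1, the Notch target, stood at 157 and 157 CPM in sgKMT2D-Mes and 23.5 and 5.94 CPM in C2-Mes, an interaction of -4.72, although its epithelial call ended when any 1 of the 4 libraries was left out. BTG2 stood at 87.8 and 85.3 CPM in sgKMT2D-Mes and 66.2 and 17.7 CPM in C2-Mes, an interaction of -2.34. Its epithelial call also ended when any 1 of the 4 libraries was left out, and its adjusted p between the mesenchymal groups was 0.076 without C2-Mes replicate 2. DNMT3A stood at 29.6 and 28.5 CPM in sgKMT2D-Mes and 16.2 and 20.03 CPM in C2-Mes, an interaction of -1.45.

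The other 3 were higher in sgKMT2D-Epi than in C2-Epi and lower in sgKMT2D-Mes than in C2-Mes. VIM stood at 3969 and 3755 CPM in sgKMT2D-Mes and 4763 and 5862 CPM in C2-Mes, an interaction of 1.35. SERPINE2 stood at 371 and 380.1 CPM in sgKMT2D-Mes and 1971 and 1523 CPM in C2-Mes, an interaction of 3.77. TEX15 stood at 0.0837 and 0.175 CPM in sgKMT2D-Mes and 6.95 and 1.92 CPM in C2-Mes, an interaction of 11.36. The C2-Mes libraries differed from each other more than other replicates, and without either of them the 9 interactions kept their sign and passed (adjusted p of at most 0.00057).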

How the results depend on the processing

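The fit with a replicate block called 2627 genes higher and 3082 lower in sgKMT2D-Epi than in C2-Epi, but the deviations of same-numbered libraries did not go together (r = -0.0506), so the numbers do not pair the samples. With only the 4 compared libraries 4550 genes were higher. Leaving out 1 library, with those of C2-Mes added after seeing the data, gave 1614 to 3543 higher and 1948 to 4201 lower genes, 408 to 1281 genes with the opposite call in the mesenchymal comparison and 3076 to 6759 interactions, each highest count being without a C2-Mes library. The opposite calls were 1117 with the correction for GC content and length. Among genes of at least 10 CPM the chromosome medians were 0.00 for chromosome 1, 0.20 for 11, -0.40 for 16, 0.14 for 17 and 0.62 for 20. The GC content and length correction, also chosen for these medians after seeing the data, gave -0.15 for chromosome 3 and -0.54 for 16. The causes were not tested. Of the values of the 157 named genes under the alternatives, 1815 kept direction and call, 48 lost the call, 15 gained it and 6 changed sign, all of them in genes that did not pass. Those 6 were CDH1 at -0.02 with the GC content and length correction and -0.01 without C2-Epi replicate 1, KRT5 at 0.05 with that correction, and KRT8 at 0.07 with it and 0.03 without sgKMT2D-Epi replicate 1 or C2-Epi replicate 1. Leaving out 1 library gave -0.01 to 0.06 for CDH1 and -0.09 to 0.03 for KRT8. Of 888 list counts 718 stayed within 1.5 times. With 2 libraries per group, genes near 0 counts have wide counting intervals.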

Other observations

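By group mean IDH2 and MMP28 were lower in sgKMT2D-Epi and C2-Epi, and also in sgEED-Epi, than in sgControl and C1. IDH2, a mitochondrial isocitrate dehydrogenase, stood at 11.2 and 12.1 CPM in sgKMT2D-Epi and 16.6 and 17 CPM in C2-Epi and averaged 10.6 CPM in sgEED-Epi, against means of 62.3 CPM in sgControl and 47.7 CPM in C1. MMP28 stood at 2.52 and 2.67 CPM in sgKMT2D-Epi and 9.68 and 11 CPM in C2-Epi and averaged 1.45 CPM in sgEED-Epi, against means of 47.4 CPM in sgControl and 29.9 CPM in C1. Both genes were picked after their values were seen, and the values are a description.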
